A study of Arabidopsis thaliana with 2 samples.

Results

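The genes described here are 5 members of the B-box zinc finger family of Arabidopsis thaliana that lack a CCT domain: BBX28 (AT4G27310), BBX29 (AT5G54470), LZF1 (AT1G78600, also BBX22), STO (AT1G06040, also BBX24) and STH (AT2G31380, also BBX25). They were chosen by locus from the authors' list of 1602 genes with a binding region of LHY, so their presence in that list is a description and not a finding. The list came from chromatin immunoprecipitation followed by sequencing (ChIP-seq) of Col-0 seedlings, the wild-type accession, aged 2 weeks and collected 2 h after dawn. DNA immunoprecipitated with an antiserum to LHY from 4 chromatin preparations was pooled into 1 library. Input DNA from the same kind of seedlings, with no antibody and also recorded as 4 pooled preparations, was the control. With 1 library per group no value below has a replicate error, no test was possible, and read depth is unknown. Plants lacking LHY were not analysed here.

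LHY, a MYB-type DNA-binding protein, is a core component of the circadian clock that accumulates around dawn and mostly represses the genes it binds. B-box proteins carry 1 or more zinc-binding B-box domains, through which they contact other proteins. Those with a CCT domain include CONSTANS and its relatives, known for day-length control of flowering. Those without it are best known from seedlings emerging into light, where they act with or against HY5, a bZIP activator of light-responsive genes, and are targets of COP1, a ubiquitin ligase that removes light regulators in darkness.

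The domain label was checked against the gene descriptions in the authors' table. Among the 1602 listed genes, 13 were described as carrying a B-box zinc finger, 8 of them with a CCT domain and 5 without. Those 5 were the 5 genes named above. By the same descriptions BBX28 and BBX29 were each other's closest Arabidopsis protein, as were STO and STH, and the closest protein to LZF1 was STO. All 5 loci were found in the reference gene table, on chromosome 4 for BBX28, chromosome 5 for BBX29, chromosome 1 for LZF1 and STO, and chromosome 2 for STH.

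The 5 genes fell into a strongly scored pair, BBX29 and BBX28, and 3 genes with scores near the middle of the list, LZF1, STO and STH. The score is the −log10 q value that the authors' peak caller gave to a peak, so a higher score means a peak less likely to arise from the background of the input library; it is used here only to order peaks within the list. The median score of the strongest peak over all 1602 genes was 10.3, with quartiles of 6.80 and 18.3 and a maximum of 260.1. The median over the 5 genes was 13.2. Of the 5, 2 lay above the upper quartile, 3 above the median and 0 below the lower quartile. Among the 1477 listed genes that are protein-coding, as all 5 are, 739 had a peak above that median. These were 2.69% of all protein-coding genes.

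BBX29 had the highest score of the 5. The deposited description assigns it to the response to cold. Its single peak scored 86.8 and lay at −494 bp, upstream of the transcription start site (TSS). It ranked 41st of 1602 genes, so that 2.56% of the listed genes scored as high or higher. Among the 139 gene-peak pairs whose position was within 100 bp of −494 bp, where the median score was 9.57, it ranked 4th. Its peak therefore stood high among peaks at a comparable distance as well as in the whole list.

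BBX28, a repressor of photomorphogenesis that binds HY5 and reduces its activity, was the only one of the 5 with more than 1 peak. A further peak was listed for 146 of the 1602 genes (9.11%). Its strong peak scored 71.5 at −600 bp and ranked 62nd of 1602 genes, with 3.87% of the listed genes at or above it. Its weak peak scored 6.04 at −1172 bp, 572 bp further upstream, and exceeded 20.5% of the 1762 gene-peak pairs. The strong peak ranked 4th of the 119 pairs within 100 bp of −600 bp, whose median score was 10.2.

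The close relatives BBX29 and BBX28 had similar values in both respects. Their scores differed by 15.3, with 20 listed genes scoring between them, and their strong peaks were 106 bp apart in distance from the respective TSS. Both peaks lay between 400 and 800 bp upstream, a range that held 238 of the 1762 pairs (13.5%). This share only describes the range, and whether the location of the pair is unusual was not tested. The range is not particular to the pair, as the peak of LZF1 at −790 bp also lay in it. So did those of COL9 at −651 bp and BBX9 at −560 bp, which have a CCT domain. No interval can be given for the differences between BBX29 and BBX28, since each peak was scored once.

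**Figure D1:**
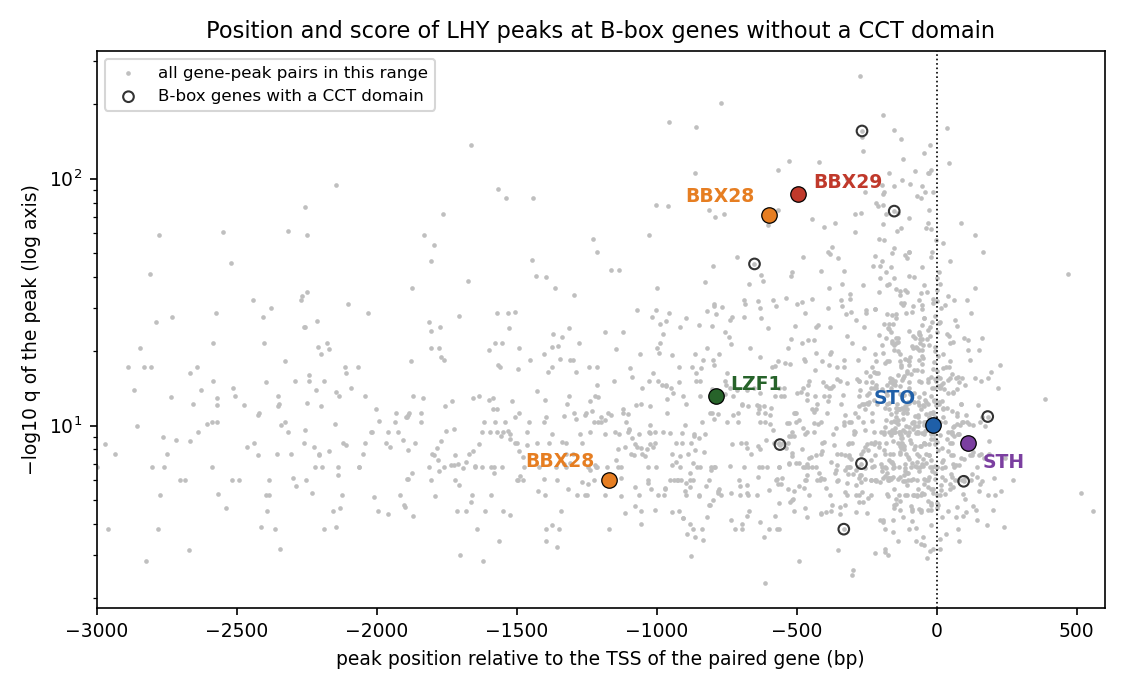
Each point is a gene-peak pair, with the peak's position relative to the TSS of its gene in bp on the x axis (−3000 to 600 bp shown) and its −log10 q on a logarithmic y axis. The strong peaks of BBX29 and BBX28 stand at 86.8 and 71.5 between −494 and −600 bp, whereas STO and STH lie at −15 and 111 bp among the many peaks near the TSS; open circles are B-box genes with a CCT domain.

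LZF1, which promotes photomorphogenesis together with HY5 and favours anthocyanin and chlorophyll accumulation, came next at a clear distance in score. Its single peak scored 13.2 at −790 bp, the furthest upstream of the 5 strongest peaks. It ranked 604th, with 37.7% of the listed genes at or above it, and 541 genes scored between BBX28 and LZF1. Among 103 pairs within 100 bp of its position it ranked 44th, against a median of 10.6. The score of LZF1 was thus 58.3 below that of BBX28 but above the median of the list and of its position.

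STO was named for the salt tolerance it confers on yeast cells, and in Arabidopsis it acts as a repressor of light and UV-B responses. Its peak scored 10.1 at −15 bp, close to the TSS, and ranked 842nd, with 52.6% of the listed genes at or above it. It lay just under the median of all genes, 10.3. Within 100 bp of its position there were 379 pairs with a median of 10.8, and STO ranked 207th of them.

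STH, the closest relative of STO, acts with it to restrain HY5. Its peak scored 8.50 and was the only one of the 6 peaks of the 5 genes downstream of a TSS, at 111 bp. A position at or downstream of the TSS was listed for 198 of the 1762 pairs (11.2%). It ranked 1006th, with 62.8% of the listed genes at or above it, and 94th of the 159 pairs within 100 bp of its position, whose median was 9.88. The scores of STO and STH differed by 1.56, and their peaks were 126 bp apart in distance from the TSS, on opposite sides of it. LZF1, STO and STH spanned 4.68 units of score, a stretch of the list with 401 genes between LZF1 and STH, STO among them.

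**Figure D2:**
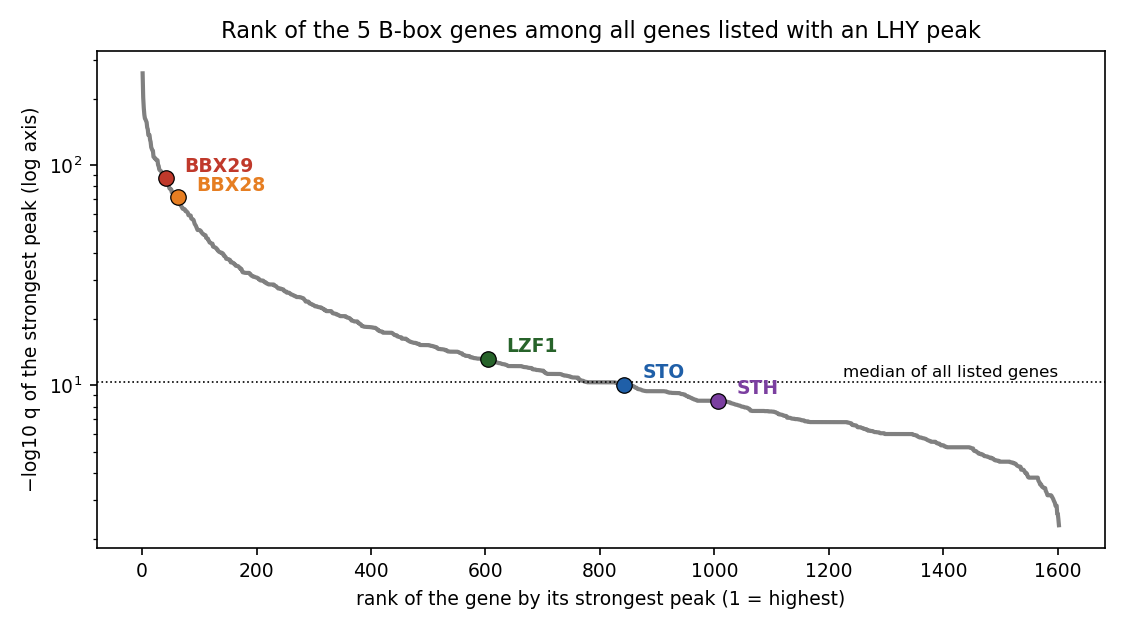
The grey line gives the −log10 q of the strongest peak, on a logarithmic y axis, of each of the 1602 listed genes in order of rank on the x axis. BBX29 and BBX28 lie on the steep part at ranks 41 and 62, and LZF1, STO and STH on the flat part at ranks 604, 842 and 1006, close to the dotted median of 10.3.

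All 5 genes had a peak in a promoter window that reached 1000 bp upstream and 200 bp downstream of the TSS. Only the weak BBX28 peak lay outside it. The 5 were chosen from listed genes, and 1052 of the 1477 listed protein-coding genes also had a peak in this window. Over all 27444 protein-coding genes the share was 3.83%. With the window widened to 3000 bp upstream the share of all protein-coding genes was 4.98%. Per the file headers, a peak was assigned to the nearest gene that faces away from the binding site, so upstream positions are favoured by the assignment itself. Within 5 protein-coding genes on each side, the list held SPL, at 2 places from BBX28, with 9.75 at −3606 bp. It held AT5G54460, next to BBX29, with 6.32 at −2140 bp, and FQR1, at 3 places, with 20.6 at −820 bp. It also held GUN1, a regulator of signalling from chloroplast to nucleus at 2 places from STH, with 13.7 at −486 bp. No score of these neighbours equalled that of a peak of the 5 genes, and LZF1 and STO had no listed gene in that range. The score of STO recurred at 1 other locus, AT1G22270, which is not among those neighbours.

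A phase of expression in constant light was deposited for 4 of the 5 genes. Phases are given in whole hours after subjective dawn and, per the file headers, were retrieved by the authors from a published time course (cut-off 0.8), not measured in this series. Over all listed genes 610 of 1602 had a phase (38.1%). BBX29 and STO had a phase of 3 h, LZF1 of 6 h and STH of 23 h, while BBX28 had none. A gene without a phase may have fallen under the cut-off or been absent from the database, and these cannot be told apart here. The 4 phases fell between 23 h and 6 h, across subjective dawn, a stretch that held 187 of the 610 rhythmic genes (30.7%). Its ends are the phases of STH and LZF1, so it holds all 4 by construction. The relatives STO and STH were 4 h apart, STH before and STO after subjective dawn.

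Set against genes of equal phase, BBX29 again stood high and STH low. The 32 listed genes with a phase of 3 h had a median score of 18.7, and BBX29 ranked 6th and STO 23rd among them. LZF1 ranked 20th of the 37 genes with a phase of 6 h, whose median was 14.2. STH ranked 12th of the 13 genes with a phase of 23 h, whose median was 13.7. BBX28 ranked 18th of the 992 genes without a phase, whose median was 9.39. The 2 genes with a phase of 3 h thus carried scores of 86.8 and 10.1, and the strongly scored pair was made up of a gene with a phase and a gene without one.

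**Figure D3:**
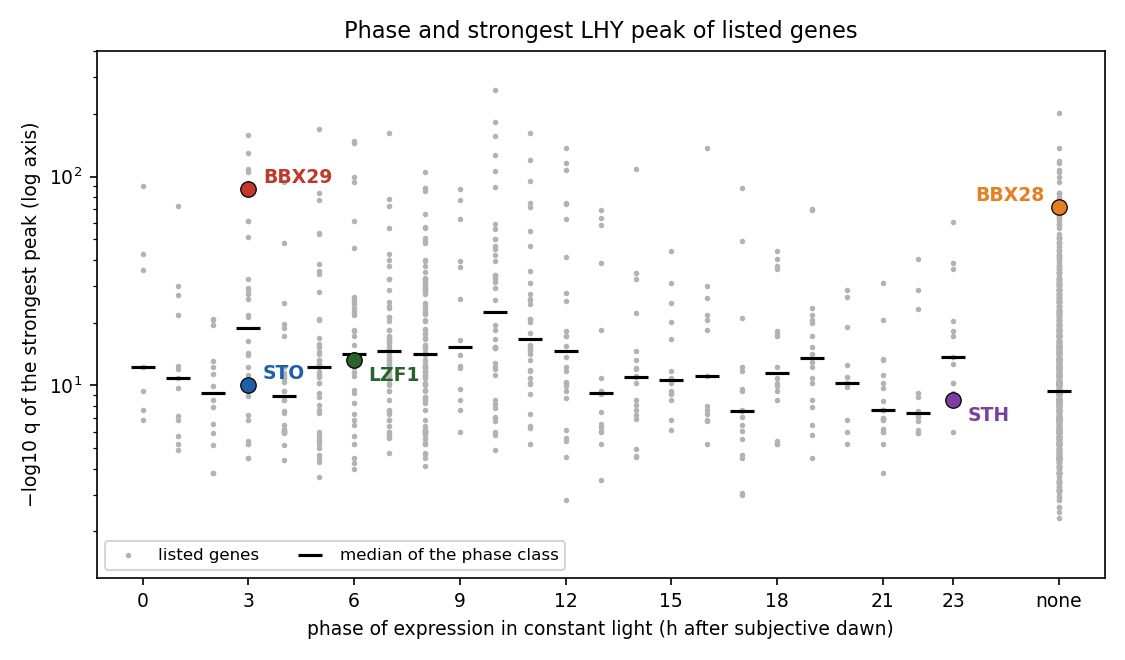
Each point is a listed gene, with its phase in constant light in hours after subjective dawn on the x axis ("none" where the authors list no phase) and the −log10 q of its strongest peak on a logarithmic y axis; black dashes are medians of a phase class. BBX29 and STO share a phase of 3 h at 86.8 and 10.1, LZF1 lies near the median of its class, and STH lies below the median of 13.7 at 23 h.

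Genes most like each of the 5 were sought among listed genes of the same phase, by the sum of the absolute log2 ratio of scores and the difference in position per 100 bp. This measure compares single values from 1 library and says nothing of function. For BBX28 the nearest of 991 genes without a phase were HCA2, a Dof-type transcription factor gene, with 64.6 at −604 bp and a distance of 0.186, and CRF4, an AP2/ERF-type factor gene, with 74.8 at −568 bp and a distance of 0.386. For BBX29 only 31 genes with a phase of 3 h were searched. The nearest was AT1G20070, of unknown function, with 28.7 at −470 bp and a distance of 1.84. EPR1, a MYB-type gene of the LHY family also called RVE7, followed with 130 at −264 bp and a distance of 2.88. A smaller pool tends to leave larger nearest distances, so those of BBX28 and BBX29 cannot be compared.

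For LZF1 the nearest of 36 genes were NUDT8, a nudix hydrolase gene, with 25.3 at −803 bp and a distance of 1.07, and AT5G08520, a MYB-related gene, with 22.4 at −522 bp and a distance of 3.44. For STO the nearest of 31 were AT2G20670, of unknown function, with 6.80 at −70 bp and a distance of 1.12, and PSB27, a photosystem II assembly gene, with 8.94 at −129 bp and a distance of 1.31. For STH the nearest of 12 were HEMA1, which encodes the enzyme at the entry to chlorophyll synthesis, with 13.7 at 59 bp and a distance of 1.21, and AT4G37550, described as a formamidase, with 18.2 at 47 bp and a distance of 1.74. STH and both of its nearest genes had a peak downstream of the TSS, but position was part of the distance. Their shared phase of 23 h was fixed by the search.

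The family of B-box genes without a CCT domain has 15 members, BBX18 to BBX32, and the 5 genes described here were all of those in the list (33.3%). The share of all protein-coding genes listed with a peak was 5.38% (1477 of 27444). Since the 5 were chosen from the list, nothing is read from this difference. Of BBX18 to BBX25, whose proteins mostly carry a pair of B-boxes, 3 of 8 were listed, with a median score of 10.1. Of BBX26 to BBX32, with a single B-box, 2 of 7 were listed, and these were the strongly scored BBX28 and BBX29. The other 10 were BBX18, BBX19, BBX20, BBX21, BBX23, BBX26, BBX27, BBX30, BBX31 and BBX32. BBX21, an activator of HY5, and BBX20, which also promotes photomorphogenesis, were thus not listed, nor were BBX30 and BBX31, short proteins that bind other B-box proteins. A gene outside the list may have a peak under the authors' threshold or one paired with another gene.

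Among the 17 B-box genes with a CCT domain 8 were listed (47.1%), beside 5.38% of all protein-coding genes. This list was also chosen with earlier results of these data known, so nothing is read from the difference. The median score of the 8 was 9.63. The highest were BBX8 with 156 at −267 bp, BBX13 with 73.9 at −152 bp and BBX7, also called COL9, with 45.1 at −651 bp. BBX29 therefore ranked 2nd and BBX28 4th among the 13 listed B-box genes. Of the 8, 6 had a phase: 10 h for BBX8 and BBX7, 12 h for BBX13, 11 h for AT2G47890, 21 h for COL1 and 4 h for COL5. The phase of COL5 fell in the stretch from 23 h to 6 h that held those of BBX29, LZF1, STO and STH, and the other 5 did not. That stretch was bounded by the phases of STH and LZF1, so these counts do not compare the families. Whether phases differ between the families was not tested.

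**Figure D4:**
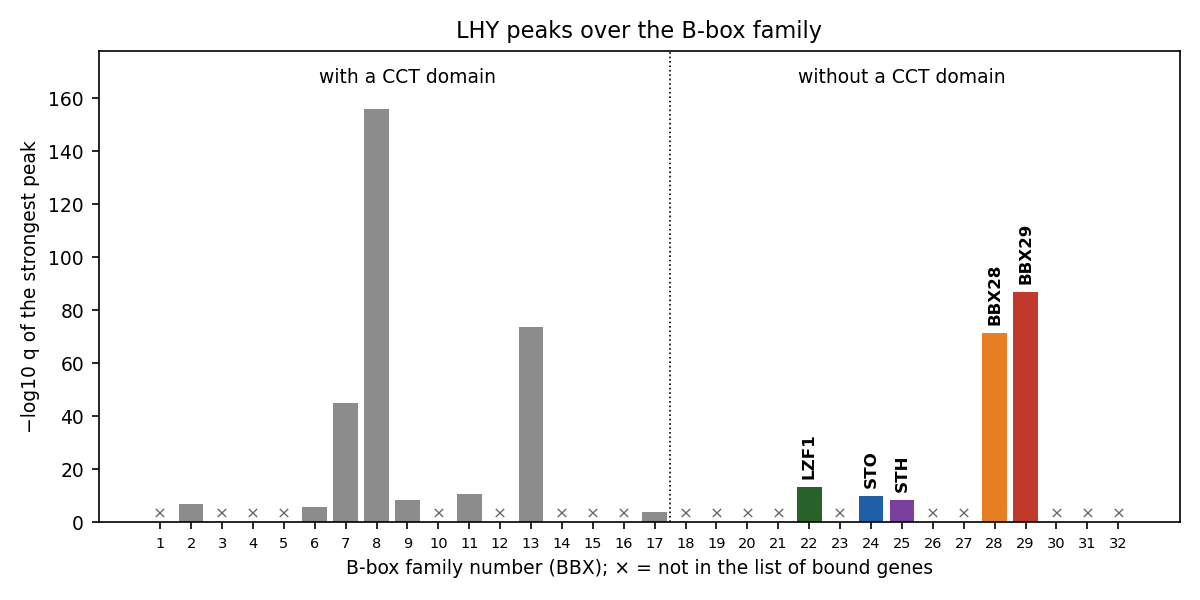
Bars give the −log10 q of the strongest peak of each of the 32 B-box genes, ordered by family number on the x axis, with crosses for genes that are not in the list. To the right of the dotted line, 5 of 15 genes without a CCT domain are listed, with BBX28 and BBX29 at 71.5 and 86.8; to the left, 8 of 17 with a CCT domain are listed, up to 156 for BBX8.

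Genes of the light signalling module in which these proteins act were listed in 6 of 20 cases (30.0%), beside 5.38% of all protein-coding genes. These 20 genes were chosen with earlier results of these data known, so nothing is read from the difference. In the promoter window 4 of the 20 had a peak, beside 3.83% of all protein-coding genes. The median score of the 6 was 10.2, close to the 10.3 of all listed genes. Upstream, the blue-light receptor gene CRY2 had 14.1 at 25 bp and CRY1 had 4.50 at −7000 bp, whereas the phytochrome genes PHYA and PHYB and the UV-B receptor gene UVR8 were not listed. At the level of the ubiquitin ligase, SPA1, a partner of COP1, had 7.64 at −357 bp, and COP1, SPA2, SPA3, SPA4 and DET1 were not listed. The UV-B signalling repressor genes RUP1 and RUP2 had 11.3 at −962 bp and 9.22 at −1526 bp. Of the transcription factor genes, PIF4, a bHLH promoter of growth, had 15.2 at −159 bp, while HY5, HYH, PIF1, PIF3 and PIF5 were not listed. RCD1, whose protein binds STO, was not listed either. PIF7 and PIL2 were not among the 20 genes but were listed, with 3.55 at −50 bp and 6.80 at −461 bp. The highest score of the module, that of PIF4, lay below those of BBX28 and BBX29 and above that of LZF1.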

How the data were processed

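ChIP-seq with an antiserum to LHY was compared by the authors with input DNA, 1 library each. Both are recorded as pooled from 4 preparations, per the labels' protocols. Per the labels' protocols, formaldehyde (1%, 10 min) served as cross-linker and sonication gave chromatin fragments of 100 to 1000 bp. The submitters' processing notes name Bowtie, MACS2 (version 2.0.10.09132012) and build TAIR9; the peak threshold and the treatment of multiply matching reads are not stated there.

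The deposited table gives, per the file headers, for each gene the −log10 q value and position of up to 4 peaks and a phase from the Diurnal database; a second header line describes these values as −log10 of a p-value instead. Whether a position marks the summit, centre or edge of a peak is not stated in the headers. Loci were matched to a TAIR10.1 gene table for names, biotypes, chromosomes and neighbours only, and 1596 of 1602 matched. Its start coordinates served only to order genes for the neighbour search, and no peak position was taken from it.

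Genes were ranked by their strongest peak, and shares were counted over 27444 nuclear protein-coding genes. The code for the ranking and the search for similar genes was checked on simulated data with a planted, nearly identical gene. This check does not show how the search behaves on the real values. The 5 genes and the 3 lists were chosen with earlier results of these data known. Genes named are the 5, other listed B-box genes without a CCT domain (none were found), listed members of the light module, the 3 strongest B-box genes with a CCT domain, the 2 genes nearest in pattern to each of the 5, and listed neighbours. Unlisted list members, AT1G22270, AT2G47890, BBX9, COL1, COL5, PIF7 and PIL2 were named after their values were seen. Alternatives covered the peaks counted and what was ranked. Motif and protein comparisons were not made here. Python 3.11.15, NumPy 2.4.6, pandas 2.3.3, SciPy 1.17.1 and Matplotlib 3.10.9 were used.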

Additional observations from a re-analysis of the deposited data

How the results depend on the processing

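Of 25 alternative values, 21 stayed within the tolerance set, which was 1.5 times the reported value for a count of genes and the exact 95% binomial interval of the reported value for a share of listed genes; a count can therefore move by more than a share before it leaves its tolerance. With only peaks above the median score, 3 of 15 B-box genes without a CCT domain (BBX29, BBX28 and LZF1), 4 of 17 with one and 3 of 20 genes of the light signalling module were counted, in place of 5, 8 and 6; fewer peaks enter by construction, and the share of all protein-coding genes was 2.69%. In the promoter window the counts were 5, 8 and 4, with a background of 3.83%, and within 3000 bp upstream they were 5, 8 and 5, with a background of 4.98%. The share of listed genes at or above each of the 5 genes moved by at most 2.43 percentage points when gene-peak pairs, protein-coding genes or the sum of all peaks of a gene were ranked; for LZF1 it was 40.1% with the sum, against 37.7%, since genes with several peaks then move up. With position differences counted per 200 bp, 8 of the 10 genes nearest in pattern were retained. Alternatives for the evening element and for protein identity were not run, as neither comparison was made. No paired analysis was possible because the comparison rests on a single library on each side. Depth is unknown, and neither the score nor the position of a peak carries an error.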
